A study of Mus musculus with 24 samples.

Results

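The neurotrophin BDNF (gene Bdnf) and the neurotrophin receptors TrkB (Ntrk2) and TrkC (Ntrk3) were followed through the amygdala and hippocampus of mice labelled high or low freezing. The members were all probe sets whose annotation holds exactly 1 gene symbol, that symbol being Bdnf, Ntrk2, Ntrk3 or Ntf3, the gene of neurotrophin-3. This rule found 18 of the 45101 probe sets on the array, of which 2 read Bdnf, 8 Ntrk2 and 8 Ntrk3. Ntf3 was not analysed here. In all, 15 of the 18 lay above the limit on dim probe sets used for testing (the dimmest 40% of probe sets left out), and the other 3 (Ntrk2 1444121_at, Ntrk3 1426003_at and Ntrk3 1443970_at) are described by their values.

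The study measured total RNA on 24 Affymetrix mouse arrays, each holding RNA of the amygdala or of the hippocampus. According to its title the mice came from a cross of C57BL/6J with A/J and had been selected on contextual fear conditioning, in which a mouse freezes in a chamber where it earlier received a shock. There were 4 groups of 6 arrays: amygdala of mice labelled high freezing, amygdala of mice labelled low freezing, hippocampus of high freezing mice and hippocampus of low freezing mice. All groups share the C57BL/6J and A/J cross; the labels state no age, sex, generation or time of dissection, and they do not say whether an array holds RNA of 1 mouse or of several, and the p-values hold for the spread among these arrays alone. Values are linear intensities as deposited. Tests used limma on log2(intensity + 16), so that folds of dim probe sets are understated, with Benjamini-Hochberg adjustment over all 27022 probe sets kept and a threshold of 0.05.

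Neurotrophins are secreted growth factors that are made as longer precursors and cut by proteases such as furin and plasmin. BDNF binds TrkB and neurotrophin-3 binds TrkC; the bound receptor pairs up, phosphorylates its own tyrosines and recruits adaptors that start the MAP kinase, PI3 kinase and phospholipase C gamma pathways. Both receptor genes also give truncated forms without the kinase domain, and astrocytes are known for the truncated form of TrkB. In the hippocampus BDNF is made by excitatory neurons, granule cells of the dentate gyrus among them, and BDNF acting on TrkB is known to be needed for fear memory in the hippocampus and in the basolateral amygdala. Bdnf is transcribed from several promoters, some of which respond to neuronal activity through CREB, the factor that binds the cyclic AMP response element.

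RefSeq (GRCm38.p6) holds 7 start windows for Bdnf on chromosome 2 and 1 for Ntrk2 on chromosome 13. The 250 bases before each start were searched on both strands for the core of the cyclic AMP response element, TGACGT, which 6.47% of all 32851 windows of this length hold, and for the E-box CACGTG, which 6.02% hold. In these 8 windows the only match was a response element core in the third Bdnf window, 36 bases before the start. That window is shown with the matching letters in capitals, next to the first Bdnf window and the Ntrk2 window, which hold neither motif, because Bdnf differed most of the members between the regions and the probe sets of its receptor Ntrk2 went both ways. All run 5′ to 3′ on the plus strand. A match describes the letters only, and no match says nothing about the factor.
Bdnf window 3, chr2:109692186-109692435: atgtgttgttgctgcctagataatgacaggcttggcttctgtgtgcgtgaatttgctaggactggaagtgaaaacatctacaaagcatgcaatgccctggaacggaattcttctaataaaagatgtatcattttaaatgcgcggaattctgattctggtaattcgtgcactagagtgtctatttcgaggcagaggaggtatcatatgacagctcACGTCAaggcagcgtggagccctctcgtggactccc
Bdnf window 1, chr2:109674450-109674699: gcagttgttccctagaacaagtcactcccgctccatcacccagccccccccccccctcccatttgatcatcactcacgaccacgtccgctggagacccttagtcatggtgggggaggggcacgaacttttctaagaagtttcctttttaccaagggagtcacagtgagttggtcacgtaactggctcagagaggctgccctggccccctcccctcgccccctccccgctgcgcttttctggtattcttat
Ntrk2 window 1, chr13:58806319-58806568: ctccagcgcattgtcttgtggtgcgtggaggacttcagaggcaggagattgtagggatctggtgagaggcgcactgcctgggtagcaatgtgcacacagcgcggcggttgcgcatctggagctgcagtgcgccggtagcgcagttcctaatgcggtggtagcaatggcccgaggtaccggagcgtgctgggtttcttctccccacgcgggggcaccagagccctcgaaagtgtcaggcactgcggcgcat

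The arrays of a group correlated at 0.972 to 0.981 with each other on the log2 scale, and their median intensities ran between 36.9 and 43.6. In the amygdala these medians averaged 42.67 (SD 0.79) in high freezing mice and 40.98 (SD 1.38) in low freezing mice. In the hippocampus they averaged 39.96 (SD 1.65) in high freezing mice and 37.83 (SD 0.74) in low freezing mice. The average was thus higher in high freezing mice in both regions, along the freezing comparison. Regional marker genes differed between the regions. All 6 measured dentate granule cell markers, all 5 of excitatory neurons and 5 of 7 of the CA fields were lower in the amygdala, where the other 2 CA field markers, Meis2 and Wfs1, were higher (log2 differences 1.95 and 0.34). Further, all 7 of central amygdala and striatum, all 3 of inhibitory neurons, all 5 of oligodendrocytes and all 5 of choroid plexus were higher. These counts are of markers past the threshold. Mixed lists were basolateral amygdala and claustrum (2 higher and 2 lower of 5), astrocytes (4 higher and 2 lower of 7) and thalamus and hypothalamus (4 higher and 1 lower of 5). Microglia had 3 higher of 4 and endothelium 1 higher of 3, with 0 lower in either list. All 4 microglia and all 3 endothelium markers lay above 0. The summed intensity of the central amygdala and striatum markers ran from 5200.3 to 8587 in amygdala of high freezing mice and from 6444 to 9292 in amygdala of low freezing mice, against 527 to 619.7 in hippocampus of high freezing mice and 525 to 651 in hippocampus of low freezing mice.

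The first comparison set the amygdala against the hippocampus. BDNF and TrkC transcripts were lower in the amygdala on every probe set tested, whereas the probe sets of TrkB went both ways. In total 15 of 15 members passed the threshold, 4 higher and 11 lower in the amygdala. The background was high: 51.2% of all probe sets passed in this comparison, 27.1% higher and 24.1% lower, so passing by itself sets the members little apart. For 6 of the 15 the 12 amygdala arrays and the 12 hippocampus arrays did not overlap at all, which held for 13.2% of all probe sets.

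Bdnf had the largest regional difference among the members. Probe set 1422168_a_at had a lowest, median and highest intensity of 54.8, 84.5 and 107 in amygdala of high freezing mice, 28.9, 61.9 and 98.8 in amygdala of low freezing mice, 308, 379 and 418 in hippocampus of high freezing mice, and 382, 430.3 and 488 in hippocampus of low freezing mice. Every amygdala array lay below every hippocampus array, and within either region the freezing groups overlapped. The mean was 71.7 ± 26.2 in the amygdala against 403 ± 54.6 in the hippocampus (SD, n = 12 each), a log2 difference of -2.31 (SE 0.119), or 4.97-fold (adjusted p = 4.81e-16).

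The second Bdnf probe set, 1422169_a_at, had a lowest, median and highest intensity of 37.8, 44.6 and 65.7 in amygdala of high freezing mice, 33.4, 53.4 and 62.0 in amygdala of low freezing mice, 145, 194 and 279 in hippocampus of high freezing mice, and 158, 173 and 239 in hippocampus of low freezing mice. The regions were again fully apart and the freezing groups intermixed. Its log2 difference between regions was -1.67 (SE 0.099, adjusted p = 1.42e-14), or 3.17-fold.

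The regional difference of 1422169_a_at was thus smaller than that of 1422168_a_at. Taken array by array, the log2 difference of 1422169_a_at from 1422168_a_at was higher by 0.65 in the amygdala than in the hippocampus (permutation test, 100000 resamples, two-sided p = 0.00183; adjusted p = 0.00439 over 12 such pairs). Both carry the suffix a, which the manufacturer gives to probe sets that read several transcripts of a gene, and both are annotated to the same source sequence. Their places in the transcript were not used here. Over the 24 arrays the pair correlated at r = 0.93, but after subtracting the group means at r = 0.19, so that most of their likeness lay between the groups.

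**Figure D1:**
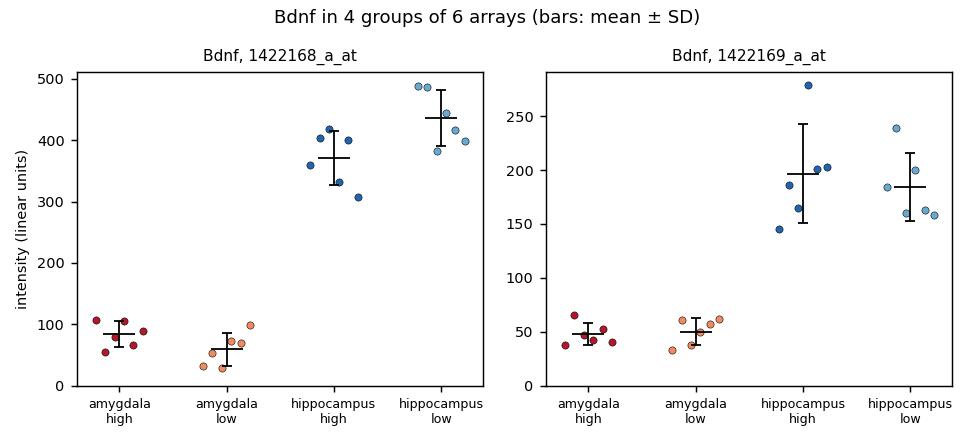
Intensity (linear units, axis from 0) of the Bdnf probe sets 1422168_a_at and 1422169_a_at in each of 24 arrays, by group; points are arrays, bars the mean ± SD of 6. All 12 amygdala arrays lie below all 12 hippocampus arrays in either panel, from 28.9 to 107 against 308 to 488 in the first.

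Values of marker lists for excitatory neurons, granule cells among them, stand beside this difference. The summed intensity of the 6 dentate granule cell markers ran from 1271 to 1672 in amygdala of high freezing mice and from 1219 to 1538 in amygdala of low freezing mice, against 2670.3 to 3169.8 in hippocampus of high freezing mice and 2943 to 3416 in hippocampus of low freezing mice. The sum of the 5 excitatory neuron markers ran from 2020.3 to 3313 and from 1847 to 2782 in the same amygdala groups, against 7136 to 8732 and 7312 to 9305 in the hippocampus groups. The CA field markers summed to 2178 to 3194 and 2387 to 3258 in the same amygdala groups, against 4212 to 4691 and 3903 to 4793 in the hippocampus groups. Of these 7 markers 5 were lower in the amygdala and 2, Meis2 and Wfs1, were higher. Such sums weigh bright genes most. Gene by gene, the median log2 difference was -2.58 for dentate granule cell markers, -1.53 for excitatory neuron markers and -2.03 for CA field markers. Over all genes the median was 0.04. The part of all these markers in the Bdnf difference was not tested. In bulk RNA, fewer cells of a type and less RNA per cell cannot be told apart.

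TrkB, the receptor for BDNF, was read by 7 tested probe sets, of which 4 were higher and 3 lower in the amygdala. Probe set 1420838_at had a lowest, median and highest intensity of 1143, 1288 and 1334 in amygdala of high freezing mice and 1141, 1279 and 1414 in amygdala of low freezing mice, against 871, 952 and 1054 in hippocampus of high freezing mice and 963, 995 and 1042 in hippocampus of low freezing mice. All amygdala arrays lay above all hippocampus arrays. The log2 difference was 0.38 (SE 0.039, adjusted p = 1.88e-09), or 1.30-fold. Probe set 1435196_at behaved alike: it had 740.4, 886 and 999 (lowest, median, highest) over the 12 amygdala arrays, against 478, 580.4 and 655 over the 12 hippocampus arrays. These did not overlap either, with a log2 difference of 0.62 (SE 0.051, adjusted p = 1.85e-11), or 1.53-fold.

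The remaining higher probe sets were more variable and overlapped between regions. Ntrk2 1420837_at, annotated to the same source sequence as 1420838_at, ran from 71.6 to 234 with a median of 147 in the amygdala, against 62.5 to 137 with a median of 89.9 in the hippocampus. Its log2 difference was 0.54 (SE 0.152, adjusted p = 0.00355). Ntrk2 1446712_at ran from 45.3 to 86.9 with a median of 60.4 in the amygdala, against 26.0 to 86.2 with a median of 49.4 in the hippocampus. Its regional log2 difference was 0.28, with the highest p of the members (SE 0.113, adjusted p = 0.0415), and it passed the threshold no longer after quantile normalization (adjusted p = 0.127), with arrays centred on their median (adjusted p = 0.139), or without any of 13 arrays in turn.

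The other 3 TrkB probe sets were lower in the amygdala. Ntrk2 1458622_at had a lowest, median and highest intensity of 793, 963 and 1109 over the amygdala arrays, against 1007, 1169.8 and 1349 over the hippocampus arrays (log2 difference -0.26, SE 0.054, adjusted p = 0.000198). Ntrk2 1435305_at had 557, 685 and 833 in the amygdala, against 760.0, 857 and 967 in the hippocampus (log2 difference -0.35, SE 0.055, adjusted p = 3.58e-06). For 1437560_at the values were 479, 559 and 706 in the amygdala, against 623, 663 and 798 in the hippocampus (log2 difference -0.24, SE 0.051, adjusted p = 0.000294). The regions overlapped for all 3, although 134, 140 and 127 of the 144 possible pairs of an amygdala and a hippocampus array had the amygdala array lower. These directions held in all alternatives run.

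**Figure D2:**
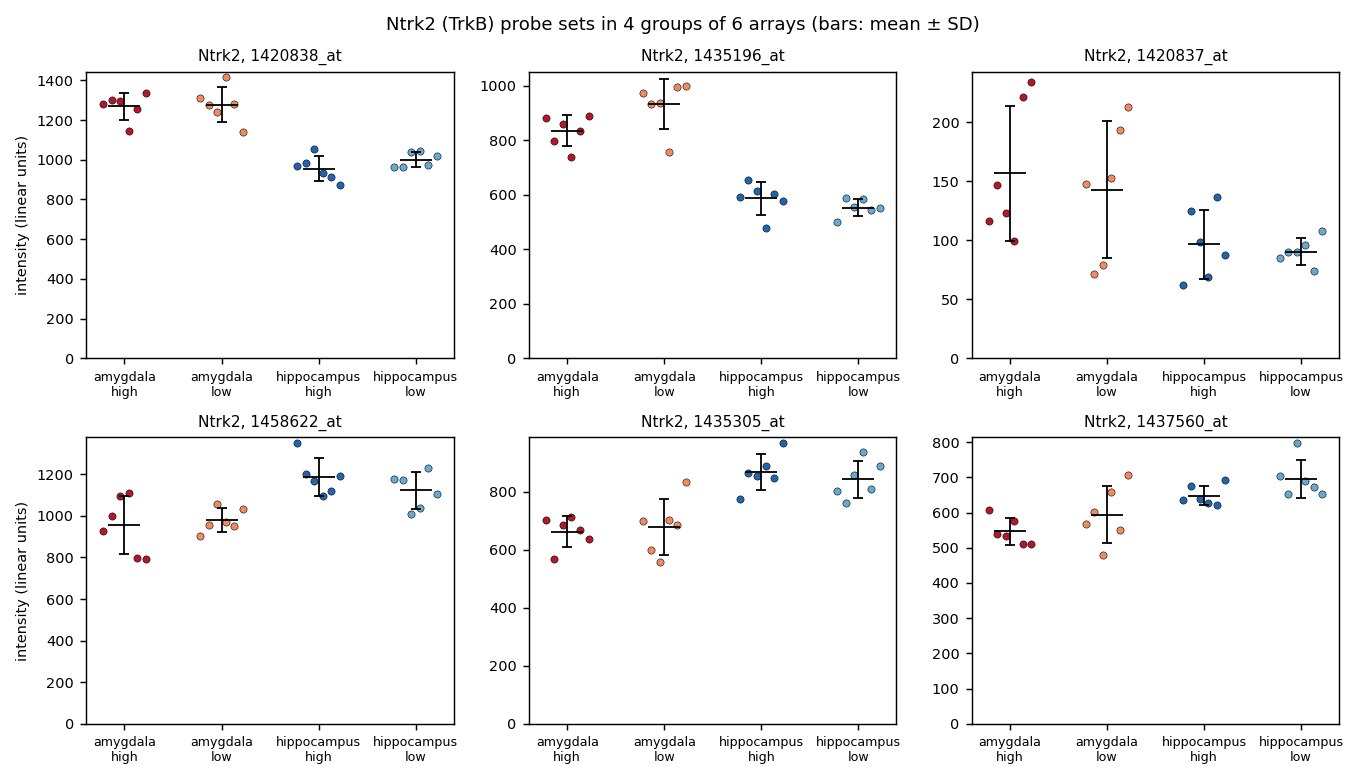
Intensity (linear units, axes from 0) of 6 Ntrk2 (TrkB) probe sets in each of 24 arrays, by group; points are arrays, bars the mean ± SD of 6. The upper row (1420838_at, 1435196_at, 1420837_at) is higher in the amygdala and the lower row (1458622_at, 1435305_at, 1437560_at) higher in the hippocampus.

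Probe sets of Ntrk2 therefore moved in opposite directions on the same arrays, and this was tested directly as the difference, array by array, from 1420838_at. Between amygdala and hippocampus that difference changed by -0.63 for 1458622_at, -0.72 for 1435305_at and -0.61 for 1437560_at on the log2 scale. Each had p = 1e-05 in a permutation test of 100000 resamples, the smallest it can give (adjusted p = 4e-05 over the 12 pairs). The difference of 1435196_at from 1420838_at was higher by 0.24 in the amygdala (adjusted p = 0.00408). Those of 1420837_at and 1446712_at, 0.17 and -0.10, did not pass (adjusted p = 0.432 and 0.453), though with an offset of 64 in place of 16 that of 1446712_at did (-0.20, adjusted p = 0.00751). Within the groups, with their means subtracted, the lower probe sets 1435305_at and 1437560_at correlated at r = 0.63, while the third lower one, 1458622_at, correlated with them at r = -0.15 and 0.04. Of the higher ones, 1435196_at correlated with 1420838_at at r = 0.05 and with 1420837_at at r = 0.34. These are over 24 arrays that share their tissue dissection and scaling. Whether a probe set reads the full-length or the truncated form was not analysed here. Astrocyte markers, which belong to cells known to carry truncated TrkB, had summed intensities of 9289.9 to 10206 in amygdala of high freezing mice and 10354 to 11274 in amygdala of low freezing mice, against 9903 to 10576 and 9821 to 11622 in the hippocampus groups. Gene by gene, 4 of the 7 passed as higher and 2 as lower in the amygdala (median log2 difference 0.22, against 0.04 over all genes). The part of these markers in the Ntrk2 differences was not tested.

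TrkC, the receptor for neurotrophin-3, was lower in the amygdala on all 6 tested probe sets. Ntrk3 1433825_at had a lowest, median and highest intensity of 263, 317 and 383 in amygdala of high freezing mice and 269.8, 305 and 328 in amygdala of low freezing mice, against 484, 526 and 578 in hippocampus of high freezing mice and 442, 520.0 and 539 in hippocampus of low freezing mice. The regions did not overlap. The log2 difference was -0.70 (SE 0.052, adjusted p = 1.33e-12), or 1.63-fold. Ntrk3 1422329_a_at was also fully apart, with 27.1 to 74.5 in the amygdala, against 86.9 to 111 in the hippocampus (log2 difference -0.82, SE 0.094, adjusted p = 1.59e-08).

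The 4 remaining TrkC probe sets overlapped between regions. Their log2 differences were -0.86 for 1455917_at, -0.82 for 1447723_at, -0.69 for 1425070_at and -0.61 for 1425071_s_at, with adjusted p between 9.14e-08 and 1.52e-05. The sizes, and so their order, depended on the offset: with 64 they were -0.56, -0.63, -0.37 and -0.46 in the same order of probe sets, and with 1 they were -1.04, -0.90, -0.96 and -0.67. The difference of 1422329_a_at was -0.51 with an offset of 64. In 1425071_s_at, whose suffix s marks probes that may match transcripts of more than 1 gene, the overlap came from 1 array of hippocampus of high freezing mice at 115, against 153 to 206 in the other 11. Unlike those of TrkB, the probe sets of TrkC did not pass as changing unequally: none of 5 pairs against 1433825_at passed in the regional test (adjusted p = 0.336 to 0.882), with changes between -0.15 and 0.10 on the log2 scale. This does not show that they changed alike, and the calls depended on the offset: with 64 in place of 16 the pairs of 1425071_s_at and 1425070_at passed (0.17 and 0.26, adjusted p = 0.00332 and 0.000816), and with 1 that of 1422329_a_at passed in the other direction (-0.29, adjusted p = 0.0491).

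**Figure D3:**
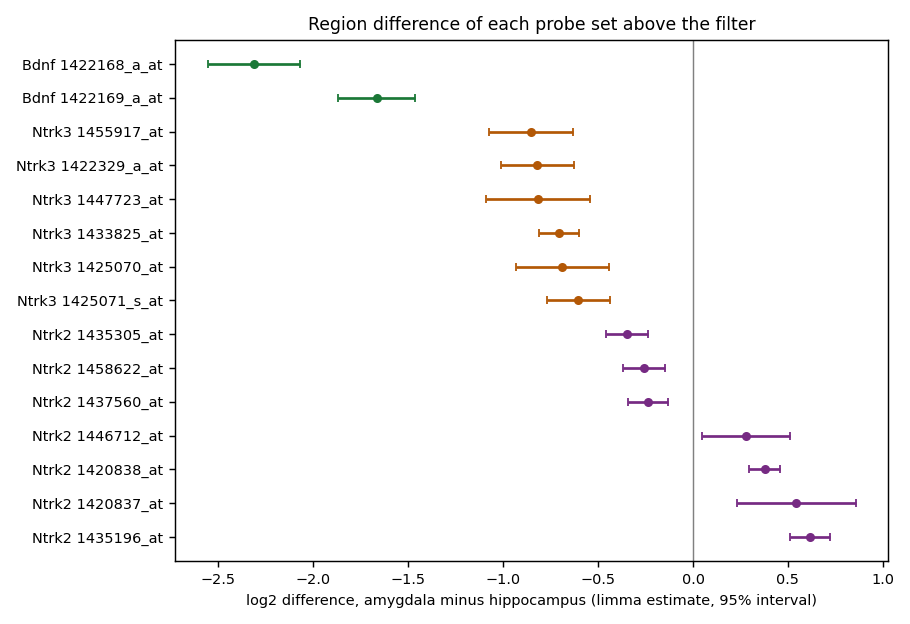
Log2 difference, amygdala minus hippocampus, of the 15 tested probe sets, with limma's 95% interval; colours mark the genes and the line marks no difference. Bdnf lies farthest to the left at -2.31 and -1.67, Ntrk3 between -0.86 and -0.61, and Ntrk2 on both sides, from -0.35 to 0.62.

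The 3 dim probe sets gave low values in every group. Ntrk2 1444121_at had a median of 6.76 over the amygdala arrays, against 8.05 over the hippocampus arrays. Ntrk3 1426003_at had 8.51 in the amygdala, against 7.93 in the hippocampus, and Ntrk3 1443970_at had 12.2, against 16.6. Their highest array of all, an amygdala array of 1443970_at, reached 24.7. The regions overlapped throughout, and no test was made.

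Other genes of the pathway also differed by region. The median log2 difference over the 12471 genes read at their brightest probe set was 0.04, with 31.6% higher and 24.6% lower in the amygdala. Among the other neurotrophins and receptors 5 of 8 genes were measured, and 2 were higher and 2 lower. Ngfr, the p75 receptor shared by all neurotrophins, was higher in the amygdala (119 ± 20.9 in the amygdala, against 23.1 ± 18.6 in the hippocampus, SD, n = 12 each; log2 difference 1.89, SE 0.169, adjusted p = 9.47e-11). Sorcs1, a receptor of the sortilin family, was higher by 1.76 on the log2 scale (139 ± 21.5 in the amygdala and 31.2 ± 11.8 in the hippocampus; adjusted p = 8.03e-12). Sort1 encodes sortilin, which binds the BDNF precursor together with p75, and it was lower (1088 ± 80.5 in the amygdala and 1655 ± 139 in the hippocampus; log2 difference -0.60, adjusted p = 1.05e-11). Sorcs3, of the same family, had a log2 difference of -0.27 (adjusted p = 0.000165). Sorcs2 had -0.02 (adjusted p = 0.827).

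Genes of neurotrophin processing and release counted 4 higher and 3 lower of 11 measured, with a median of 0.03. Cadps2, a dense-core vesicle protein known in mice to promote BDNF release, was lower in the amygdala by 2.97-fold (363 ± 107 in the amygdala and 1073 ± 48.5 in the hippocampus; adjusted p = 5.78e-14). The proprotein convertase Pcsk5 had a log2 difference of -1.47 and Serpini1, an inhibitor of tissue plasminogen activator, of -0.65. Scg2 and Vgf, proteins of secretory granules, and the convertase Pcsk6 were higher, by 0.57, 0.23 and 0.47.

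Adaptors and signalling proteins of the Trk receptors counted 10 higher and 4 lower of 24 measured, with a median of 0.06. The docking protein Gab1 was higher in the amygdala by 3.31-fold (743 ± 124 in the amygdala and 213 ± 32.5 in the hippocampus; adjusted p = 1.36e-18), its relative Gab2 by 0.77 on the log2 scale and the PI3 kinase regulatory subunit Pik3r1 by 0.67. Slitrk5, a membrane protein that associates with TrkB, was lower by 1.80-fold. The ubiquitin ligase Nedd4l had a log2 difference of -0.82 and the receptor phosphatase Ptprs of -0.57. The partners of p75 counted 2 higher and 4 lower of 11 measured (median -0.03). Among them the guanine exchange factor Kalrn had -2.03, the Nogo receptor Rtn4r -1.19 and its co-receptor Lingo1 -0.71, while necdin (Ndn) had 0.35 and the zinc finger protein Zfp110 had 0.32.

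Regulators of Bdnf transcription counted 2 higher and 8 lower of 18 measured, with a median of -0.17. Tcf4, a basic helix-loop-helix factor, was lower by 2.30-fold (1059 ± 95.1 in the amygdala and 2457 ± 153 in the hippocampus; adjusted p = 6.23e-19). The CREB coactivator Crtc1 had a log2 difference of -0.75 and the repressor Bhlhe40 of -0.55, whereas the repressor Rest had 0.42 and the histone deacetylase Hdac5 had 0.16. Genes known to respond to or depend on BDNF counted 0 higher and 7 lower of 11 measured, with a median of -0.21. Dusp6, a phosphatase induced by MAP kinase signalling, was lower by 2.09-fold, and the immediate early genes Arc and Junb had log2 differences of -0.74 and -0.68. The lists were chosen with earlier results known, and nothing is called particular to them.

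The second question was whether the members differed between high and low freezing mice. Within the hippocampus 0 of 15 passed, against 0.0518% of all probe sets, and 1 had an unadjusted p under 0.05, against 3194 of 27022. Within the amygdala 0 of 15 passed, against 0.0555% of all, and 5 had an unadjusted p under 0.05, against 2901 of 27022. In neither region did the freezing groups separate without overlap for any member. The share of all probe sets that separate in this way was not counted, so this sets the members apart from nothing. Averaged over both regions, 1 of 15 passed, a probe set of Ntrk3, against 1.05% of all probe sets.

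That probe set was 1447723_at, which was lower in high freezing mice. Its lowest, median and highest intensity were 52.6, 103 and 128 in amygdala of high freezing mice, against 101, 159 and 243 in amygdala of low freezing mice. In the hippocampus they were 126, 184 and 242 in high freezing mice, against 223, 261 and 354 in low freezing mice. In both regions the high freezing arrays lay mostly below the low freezing ones, with some overlap. The means were 94.7 ± 32.5 in high and 160.4 ± 51.6 in low freezing amygdala, and 185 ± 41.3 in high and 273 ± 53.5 in low freezing hippocampus (SD, n = 6 each).

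The log2 difference of 1447723_at, high minus low freezing, was -0.61 averaged over both regions (SE 0.134, 95% interval -0.88 to -0.33), or 1.52-fold, with an adjusted p of 0.0210. It ranked at place 122 of 27022 by p. In total 0.511% of all probe sets passed as lower, and after centring each array on its median 673 of the 785 probe sets that then passed were lower. Separately, the difference was -0.68 in the amygdala (SE 0.189, adjusted p = 0.151) and -0.54 in the hippocampus (SE 0.189, adjusted p = 0.241), so that it did not pass within a region. The averaged difference passed in all 34 alternatives run, with values between -0.67 and -0.47 and adjusted p between 0.00848 and 0.0459.

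The other TrkC probe sets did not share this. Averaged over both regions, 1433825_at had a log2 difference of 0.07 (95% interval -0.04 to 0.17, adjusted p = 0.573), 1422329_a_at of 0.23 (adjusted p = 0.210) and 1455917_at of 0.27 (adjusted p = 0.205). Taken array by array against 1433825_at, 1447723_at was lower in high freezing mice by 0.76 in the amygdala and by 0.59 in the hippocampus on the log2 scale. Over 24 such pair tests neither passed (exact permutation over all 924 regroupings, two-sided p = 0.0303 and 0.00649; adjusted p = 0.275 and 0.156). The smallest p that 6 against 6 arrays allow is 0.00216. With group means subtracted, 1447723_at correlated with 1433825_at at r = -0.17, while 1422329_a_at, 1425071_s_at, 1425070_at and 1455917_at correlated with it at r = 0.54, 0.51, 0.27 and 0.19. The transcript sequence that 1447723_at reads was not analysed here.

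**Figure D4:**
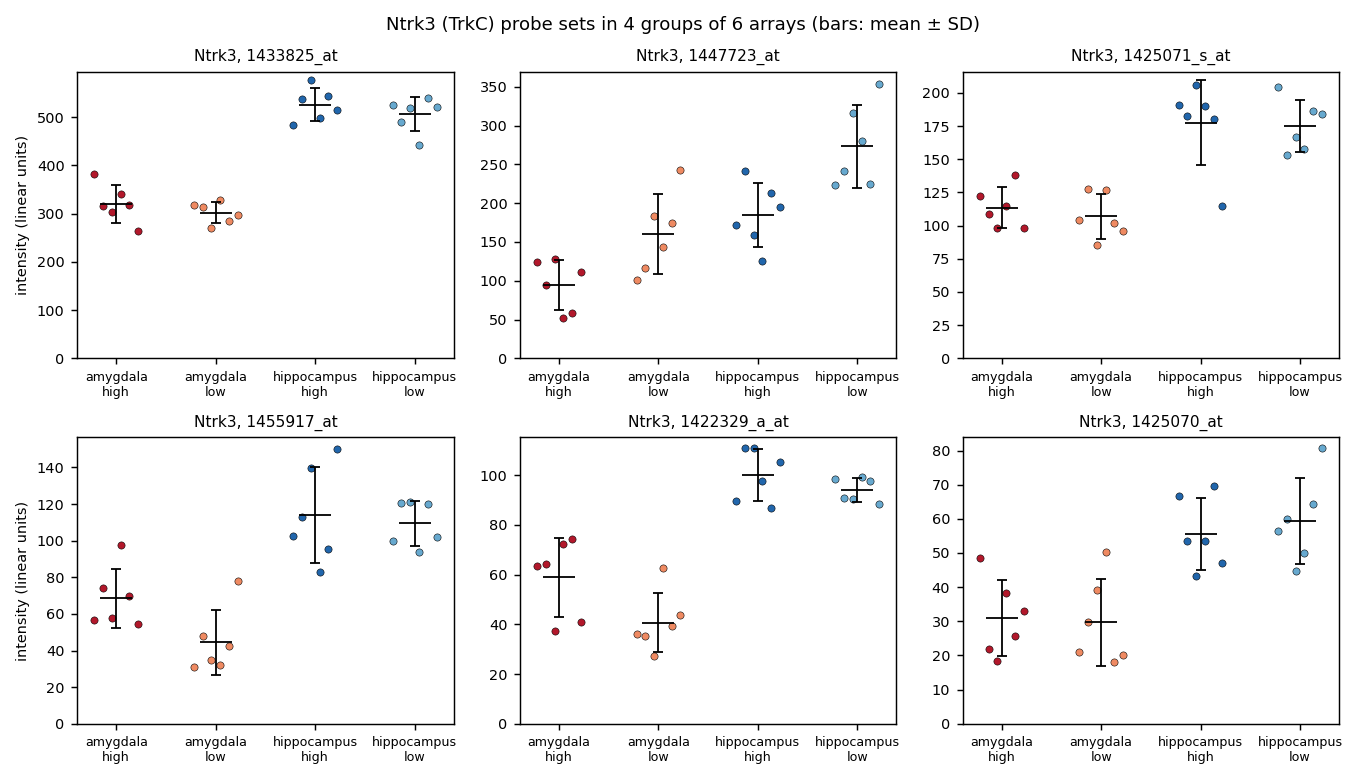
Intensity (linear units, axes from 0) of 6 Ntrk3 (TrkC) probe sets in each of 24 arrays, by group; points are arrays, bars the mean ± SD of 6. All 6 are lower in the amygdala, and in the panel of 1447723_at the high freezing groups lie lower, with means of 94.7 against 160.4 in the amygdala and 185 against 273 in the hippocampus.

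Some glial markers were also lower in high freezing mice. Of the 7 astrocyte markers, 2 lay above 0 in the averaged freezing comparison and 1 passed, Gfap, with a log2 difference of -0.87 (adjusted p = 0.00279). Astrocyte markers summed to 9289.9 to 10206 in amygdala of high freezing mice and 10354 to 11274 in amygdala of low freezing mice. In the hippocampus they summed to 9903 to 10576 in high freezing mice and 9821 to 11622 in low freezing mice. All 4 microglia markers lay below 0 and C1qc passed (-0.40, adjusted p = 0.0399). Microglia markers summed to 789 to 985 in amygdala of high freezing mice and 961 to 1403 in amygdala of low freezing mice, and to 635 to 799 in hippocampus of high freezing mice and 711 to 879.5 in hippocampus of low freezing mice. In the averaged comparison 0 of 5 oligodendrocyte markers (median -0.07) lay above 0, and 1 of 7 of central amygdala and striatum (-0.12). For CA fields it was 2 of 7 (-0.02) and for thalamus and hypothalamus 2 of 5 (-0.08). Excitatory neurons had 4 of 5 above 0 (0.20), basolateral amygdala and claustrum 4 of 5 (0.08) and choroid plexus 5 of 5 (0.08). The remaining lists had medians between -0.00828 and 0.00189. The part of all these markers in the 1447723_at difference was not tested.

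In the amygdala 4 further members had an unadjusted p under 0.05 and did not pass after adjustment. Bdnf 1422168_a_at averaged 84.0 ± 21.0 in high freezing mice and 59.3 ± 26.5 in low freezing mice, a log2 difference of 0.46 (95% interval 0.12 to 0.80, adjusted p = 0.300). Ntrk3 1455917_at averaged 68.5 ± 16.2 in high freezing mice and 44.4 ± 17.7 in low freezing mice (log2 difference 0.51, adjusted p = 0.187). Ntrk3 1422329_a_at averaged 58.8 ± 15.9 in high freezing mice and 40.7 ± 12.0 in low freezing mice (log2 difference 0.40, adjusted p = 0.255). All 3 are probe sets with less signal in amygdala than in hippocampus. The last, Ntrk2 1435196_at, is higher there and averaged 835 ± 56.9 in high freezing mice and 933 ± 90.9 in low freezing mice (log2 difference -0.15, adjusted p = 0.439). Not all members followed these directions. Ntrk3 1447723_at, described above, also has less signal in the amygdala, but there it was lower in high freezing mice (log2 difference -0.68). Bdnf 1422169_a_at, again with less signal in the amygdala, had -0.05.

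Values of the marker lists stand beside these. In the amygdala freezing comparison all 5 excitatory neuron markers lay above 0, with a median of 0.18, and 0 of 7 markers of central amygdala and striatum did, with a median of -0.30. All 5 basolateral amygdala and claustrum markers lay above 0 (median 0.07), and 4 of 6 of dentate granule cells (0.09) and 4 of 7 of the CA fields (0.01). None of 4 microglia markers (median -0.31), 3 inhibitory neuron markers (-0.04) and 5 oligodendrocyte markers (-0.07) lay above 0, and 1 of 5 of thalamus and hypothalamus (-0.27), 1 of 5 of choroid plexus (-0.02), 1 of 3 of endothelium (-0.00125) and 2 of 7 of astrocytes (-0.16) did. No marker passed in this comparison. The central amygdala and striatum markers summed to 5200.3 to 8587 in high freezing mice and 6444 to 9292 in low freezing mice. Their part in the Bdnf and Ntrk3 values was not tested. The call for 1455917_at rested on the choice of arrays: without the sixth array of low freezing amygdala, at 78.2 the highest of its group, it passed (log2 difference 0.64, adjusted p = 0.0471).

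Whether freezing differed by region was tested as the interaction, which 0% of all probe sets passed (1637 had an unadjusted p under 0.05). Of the members, 3 had an unadjusted p under 0.05. For Bdnf 1422168_a_at the high minus low difference was 0.46 in the amygdala and -0.23 in the hippocampus, where its median was 379 in high freezing mice and 430.3 in low freezing mice. The interaction was 0.69 (95% interval 0.20 to 1.17, adjusted p = 0.772). Bdnf 1422169_a_at did not follow, with -0.05 in the amygdala and 0.07 in the hippocampus. The other values were 0.47 for Ntrk3 1455917_at and -0.23 for Ntrk2 1435196_at (both adjusted p = 0.824).

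Averaged over both regions, 3 of 15 members had an unadjusted p under 0.05, against 4292 of 27022 probe sets: 1447723_at, which passed, and Ntrk3 1455917_at (log2 difference 0.27, 95% interval 0.05 to 0.49) and 1422329_a_at (log2 difference 0.23, 95% interval 0.04 to 0.43), which did not. The 95% intervals of the 12 other members held 0. Ntrk2 1420838_at had a log2 difference, high minus low freezing, of -0.04 (95% interval -0.12 to 0.04) and 1458622_at of 0.02 (95% interval -0.09 to 0.13). Bdnf 1422169_a_at had 0.01 (95% interval -0.19 to 0.22), and Ntrk2 1420837_at, the most variable, had 0.10 (95% interval -0.22 to 0.41). None of the 80 measured genes of the pathway lists passed in any freezing comparison. Of all probe sets, 0.0518% passed in the hippocampus, 0.0555% in the amygdala, 1.05% averaged over both regions and 0% in the interaction. At these shares, the absence of calls sets the pathway genes little apart.

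**Figure D5:**
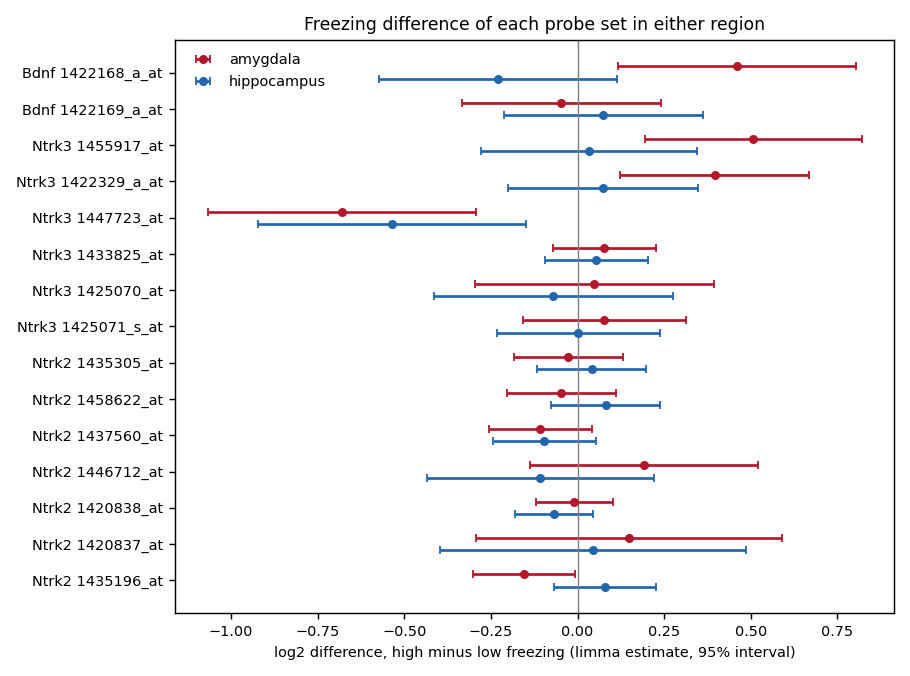
Log2 difference, high minus low freezing, of the 15 tested probe sets in the amygdala and in the hippocampus, with limma's 95% interval (before adjustment for many tests); the line marks no difference. Ntrk3 1447723_at lies left of the line in both regions (-0.68 and -0.54), and Bdnf 1422168_a_at right of it in the amygdala (0.46) and left of it in the hippocampus (-0.23).

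Since the mice came from a cross, the genes next to the members were read as well, 10 with a measured probe set on either side in the RefSeq gene order. Around Ntrk3 on chromosome 7, 0 of 20 passed in any freezing comparison (smallest adjusted p = 0.289, averaged over both regions), and around Ntrk2 on chromosome 13 also 0 of 20 (smallest adjusted p = 0.220). Of all probe sets, 0.0518% passed in the hippocampus, 0.0555% in the amygdala and 1.05% averaged over both regions (0.511% as lower). At these shares, 0 of 20 sets the neighbours of Ntrk3 and Ntrk2 little apart. Around Bdnf on chromosome 2, 2 of 20 passed in the averaged comparison, both lower in high freezing mice. They were Nop10, a protein of small nucleolar ribonucleoproteins (log2 difference -0.23, adjusted p = 0.00783), and Immp1l, a mitochondrial inner membrane peptidase subunit (-0.22, adjusted p = 0.0393). Neither passed within a region.

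Finally, the genes whose pattern was most like each member were sought by Pearson correlation of log2 values, as a description with no test. Over the 24 arrays, which share the regional split, Bdnf 1422168_a_at was most like Olfm1 (r = 0.980), Cck (r = 0.978), Clvs2, Syt17 and Mmd, all of them lower in the amygdala. Ntrk2 1420838_at was most like Stmn4 (r = 0.967), Cadm4, Plekhb1, Reep5 and Pacs2, all higher there. Ntrk3 1433825_at was most like Ddn (r = 0.975), Kalrn (r = 0.975), Rasl11b, Bcl11a and Scn3b. With the 4 group means subtracted, the nearest were Tbc1d24 for Bdnf (r = 0.813), Nap1l4 for Ntrk2 (r = 0.794) and Srf for Ntrk3 (r = 0.859). Stmn4 stood among the first 5 of Ntrk2 both ways (r = 0.747 within groups), and Rasl11b among those of Ntrk3 (r = 0.814 within groups). For Bdnf the genes named by the 2 measures were all different.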

How the data were processed

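Total RNA of amygdala and hippocampus was measured on 24 1-colour Affymetrix mouse arrays, 6 in each group of region and freezing label, per the labels. The deposited values are linear intensities of 45101 probe sets; which software produced them is not stated in the sources used here. The 2% trimmed mean of every array is 150.0, so the deposited intensities had been scaled. Probe sets were named through the platform annotation (34958 with 1 gene symbol, 932 with several, 9211 with none). Here log2(intensity + 16) was taken, 64 control probe sets and the dimmest 40% by mean were left out, and the remaining 27022 (mean intensity from about 23.3) were fitted with limma 3.58.1 in R 4.3.3, with 1 mean per group, a variance prior that follows the trend with intensity, and 20 residual degrees of freedom. All were two-sided; p-values were adjusted over all fitted probe sets by Benjamini-Hochberg, at a threshold of 0.05. Comparisons were region, freezing within each region, freezing averaged over both, and their interaction. Probe sets of a gene were compared by the log2 difference from its brightest probe set on the same array, with permutation tests in Python 3.11.15 and scipy 1.17.1. The fit was tested on simulated arrays with independent noise and with changes planted only in the hippocampal freezing comparison. This does not cover changes in the other comparisons or effects shared by the probe sets of an array.

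Alternatives covered the offset, scaling, filter, variance prior, array weights, each array left out, the replicate number and, for freezing within a region, that region's arrays alone. Intensities carry no read depth; the number of arrays limits the precision. Genes named are all member probe sets, the pathway list genes with the 3 largest differences in either direction among those past the threshold, and the genes of 6 pathway and 12 marker lists where a result turns on them. The members, lists and tests were chosen with earlier results of these data known. Neighbouring genes and promoter windows come from RefSeq, GRCm38.p6.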

Additional observations from a re-analysis of the deposited data

Results flagged for a closer look

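In 2 of the 72 groups of 6 arrays tested (18 probe sets in 4 groups), the lowest array stood far from the others by Dixon's ratio, the gap to the nearest array over the group's whole range; chance marks about 1 in 20 such groups. For Ntrk3 1425071_s_at, array 12 of high freezing hippocampus had an intensity of 115 and a ratio of 0.765. Without this array the region difference was -0.66 on the log2 scale, against -0.61 with it, and the freezing difference in the hippocampus 0.11 (adjusted p = 0.771), against 0.00 with it. For Ntrk2 1435196_at, array 4 of low freezing amygdala had an intensity of 756.0 and a ratio of 0.758. Without it the freezing difference in the amygdala was -0.21 (adjusted p = 0.193), against -0.15 with it, and the region difference 0.65, against 0.62 with it.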

How the results depend on the processing

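Under the alternatives no call of a member reversed. The region count of 15 ranged down to 13, the lowest where the dimmest 60% were left out and 2 members were no longer tested. Ntrk2 1446712_at lost its region call in 17 of 33 alternatives, with values of 0.16 to 0.36 throughout; it was the only call lost. The amygdala freezing count was 0 to 1 over the fits that leave out 1 array each, the 1 being Ntrk3 1455917_at without array 6 of low freezing amygdala. With an offset of 64, 8 of the 12 within-gene pairs passed in the region test, against 5. Over all probe sets, 785 passed in the averaged freezing comparison with arrays centred on their median (112 higher, 673 lower), against 284 (146 higher, 138 lower), and 160 at the least, without low freezing hippocampus array 5. Centring also gave 5580 higher and 8605 lower in the region comparison, against 7310 and 6522. The freezing counts ran from 0 to 33 in the hippocampus, against 14, with 0 without its low freezing array 5 or high freezing array 11 and 33 without low freezing array 2, and from 0 to 56 in the amygdala, against 15, where 0 came from the amygdala arrays alone and 56 without its low freezing array 6. The causes were not tested. The labels do not say whether same-number arrays of the 2 regions come from the same mice. These arrays correlated at -0.0791 to 0.0865 after subtracting group means. Each amygdala array was also set against the 6 hippocampus arrays of its freezing label, and 5 of 12 correlated best with their own number. Such values cannot decide whether the numbers pair the regions, since arrays of 1 mouse need not deviate together in different tissues. With the number as a fixed replicate block, 15 members passed by region. With it as a random block (consensus correlation 0.0256), 0 members passed by freezing in either region and 1 averaged. Freezing differences near 0 changed sign in some alternatives without passing, as for Ntrk3 1425070_at averaged over both regions, in 8 of 33.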

Other observations

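Of the probe sets looked up after their values were seen, Ntrk3 1447723_at was most like Nrcam (r = 0.860 over the 24 arrays) and, with group means subtracted, Tcf25 (r = 0.807), and none of its 5 nearest genes by either measure was among the 5 nearest of Ntrk3 1433825_at. Among the Ntrk2 probe sets, 1435196_at was most like Tnrc6a (r = 0.954) and 1435305_at most like Ncald (r = 0.879), which had region differences of 0.76 and -0.86 on the log2 scale. Pcsk5, a proprotein convertase of the pathway lists, stood among the 5 nearest of 1435305_at (r = 0.869). Across genes, Ntrk3 1433825_at followed Bdnf 1422168_a_at over the 24 arrays (r = 0.93) but less with group means subtracted (r = 0.24), and Ntrk2 1437560_at followed the same Bdnf probe set at r = 0.74 and, with group means subtracted, r = 0.58. These correlations share arrays, dissections and the scaling of each array, and they were not tested.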
